A study of Mus musculus with 29 samples.

Results

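In a deposited division of the mouse genome into 5 types of H2Aub segment, 1195 short stretches of type 5 lay inside type 4. They were chosen by the type labels and by length. After sorting and merging, a gap was a type 5 segment under 300 kb whose neighbours directly before and after were both type 4. The 1195 gaps are among 31563 segments of chromosomes 1 to 19, of which 3775 were type 5 and 4751 type 4. The segmentation has no key to its types, which are therefore named by number, and nothing is said of how much H2Aub a type carries.

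Histone H2A monoubiquitination (H2Aub) is laid down by Polycomb repressive complex 1 and removed by the deubiquitinase PR-DUB. H3K27me3 is laid down by Polycomb repressive complex 2, which needs its subunit Eed. Both marks sit on silent developmental genes and, in oocytes, also on broad domains away from promoters, and the maternal allele of some imprinted genes is kept silent by oocyte H3K27me3 without DNA methylation.

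The series holds 29 CUT&RUN libraries in 16 groups, 24 of H2Aub and 5 of H3K27me3, where CUT&RUN is an assay in which a nuclease guided by an antibody cuts out the DNA carrying a mark. The 6 H2Aub libraries of Eed MatKO came from Gdf9-Eed (fl/fl) GV oocytes (B6/129 mixed) and from their 4-cell embryos and morulae by WT PWK fathers, 2 libraries each, and the deletion rests on Gdf9, a gene active in growing oocytes. The 6 libraries of PR-DUB embryos were 4-cell, B6/DBA x PWK, with 1 H2Aub and 2 H3K27me3 libraries for PR-DUB (OE) and the same numbers for PR-DUB (CTR). The 16 H2Aub libraries titled WT ran over stages from the GV and MII oocyte through the zygote, 2-cell embryo, 4-cell embryo, morula and inner cell mass to the epiblast of day 6.5. Of these WT libraries, those of GV oocytes, 4-cell embryos, morulae and 2 of the 3 of 2-cell embryos carried Eed (fl/fl) on the mother's side (B6/129 mixed, or x PWK for embryos). The other WT libraries were B6/DBA or B6/DBA x PWK without that allele, and the 1 H3K27me3 library titled WT came from B6/DBA GV oocytes. From 1 to 300 oocytes or embryos went into a library, a number that 3 libraries lack. The segmentation has no column for any library, so no stage or genotype has a value of its own, the read depth behind a segment is unknown, and no test over samples could be made. All values below describe 1 segmentation.

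The sequences at 6 start sites inside gaps show how unlike the few promoters there are. They belong to 6 of the 10 longest protein-coding genes that lay wholly inside a gap, and each is the 250 bases before the outermost start site listed for that gene in the RefSeq promoter table, GRCm38.p6, read 5′ to 3′ on the gene's strand, with every CG in capitals. For Ptprc, Abca8b, Lrrc72 and Tmem144 the annotated gene body begins upstream of that listed start. Smarca5 encodes the ATPase of ISWI chromatin remodellers (chr8:80739460-80739709, minus strand). Ift57 encodes a subunit of the intraflagellar transport machinery of cilia (chr16:49699044-49699293, plus strand). Abca8b encodes an ABC transporter (chr11:109995846-109996095, minus strand), Lrrc72 a leucine-rich repeat protein (chr12:36253399-36253648, minus strand) and Tmem144 a transmembrane protein (chr3:79852769-79853018, minus strand). Ptprc encodes CD45, the tyrosine phosphatase of leukocytes (chr1:138175306-138175555, minus strand).
Smarca5: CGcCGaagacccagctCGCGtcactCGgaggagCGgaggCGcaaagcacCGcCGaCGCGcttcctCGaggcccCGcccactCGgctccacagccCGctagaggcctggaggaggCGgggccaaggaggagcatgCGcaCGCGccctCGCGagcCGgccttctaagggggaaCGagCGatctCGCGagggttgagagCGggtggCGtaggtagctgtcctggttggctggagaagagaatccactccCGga
Ift57: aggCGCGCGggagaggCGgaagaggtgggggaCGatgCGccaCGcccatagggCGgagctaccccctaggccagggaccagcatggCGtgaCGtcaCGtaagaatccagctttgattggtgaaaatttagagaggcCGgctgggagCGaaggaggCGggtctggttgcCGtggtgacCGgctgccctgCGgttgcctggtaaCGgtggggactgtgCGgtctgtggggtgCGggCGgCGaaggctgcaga
Abca8b: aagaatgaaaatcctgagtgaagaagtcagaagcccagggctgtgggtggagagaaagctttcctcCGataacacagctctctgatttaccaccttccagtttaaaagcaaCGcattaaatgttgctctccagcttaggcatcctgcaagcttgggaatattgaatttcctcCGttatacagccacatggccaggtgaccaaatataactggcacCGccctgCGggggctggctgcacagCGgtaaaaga
Lrrc72: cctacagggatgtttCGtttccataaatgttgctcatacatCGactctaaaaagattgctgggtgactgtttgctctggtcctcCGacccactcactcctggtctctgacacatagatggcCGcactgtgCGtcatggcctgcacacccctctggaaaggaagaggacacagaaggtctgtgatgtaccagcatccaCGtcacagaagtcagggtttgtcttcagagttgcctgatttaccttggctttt
Tmem144: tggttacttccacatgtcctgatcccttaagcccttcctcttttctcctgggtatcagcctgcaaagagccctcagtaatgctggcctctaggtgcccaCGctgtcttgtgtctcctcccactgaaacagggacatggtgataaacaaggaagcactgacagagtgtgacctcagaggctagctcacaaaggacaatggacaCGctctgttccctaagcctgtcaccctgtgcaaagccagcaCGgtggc
Ptprc: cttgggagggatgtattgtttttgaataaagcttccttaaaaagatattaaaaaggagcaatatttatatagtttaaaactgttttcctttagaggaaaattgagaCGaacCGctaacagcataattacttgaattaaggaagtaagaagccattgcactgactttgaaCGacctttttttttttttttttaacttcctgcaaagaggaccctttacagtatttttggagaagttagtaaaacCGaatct
The 250 bases of Smarca5 held 29 CG at a GC content of 69.2%, and those of Ift57 held 22 at 66%. Abca8b and Lrrc72 held 6 each at 48.8% and 50%, Tmem144 held 3 at 53.6%, and Ptprc held 4 at 31.6%. Over the window of 300 bases that also takes in 50 bases after the start, Smarca5 and Ift57 were CpG-rich (GC of at least 50% and an observed over expected CpG ratio of at least 0.6), and the other 4 were not.

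Of 919 microRNA hairpins in the RefSeq sequence table, 8 (0.871%) lay in gaps, and 6 of them were the miR-17-92 cluster, a polycistronic microRNA cluster known for promoting cell proliferation. The cluster is named after its values were seen. Mir17, Mir18, Mir19a, Mir20a, Mir19b-1 and Mir92-1 all lay in a gap of 45 kb on chromosome 14 (115040001 to 115085000), with 25 kb of type 4 before it and 20 kb after it. The main mature products, from RefSeq GRCm38.p6, follow with the seed (bases 2 to 8) in capitals.
mmu-miR-17-5p: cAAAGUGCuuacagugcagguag
mmu-miR-20a-5p: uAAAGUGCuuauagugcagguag
mmu-miR-18a-5p: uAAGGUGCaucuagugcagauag
mmu-miR-19a-3p: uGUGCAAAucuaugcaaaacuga
mmu-miR-19b-3p: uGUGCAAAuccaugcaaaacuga
mmu-miR-92a-3p: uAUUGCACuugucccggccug
The miR-17-5p and miR-20a-5p seeds were the same, AAAGUGC, and so were those of miR-19a-3p and miR-19b-3p, GUGCAAA, while miR-18a-5p and miR-92a-3p each had a seed of their own. The remaining hairpins of that table in gaps were Mir6363 in a gap of 120 kb (50610001 to 50730000) and Mir5118 in a gap of 25 kb (55485001 to 55510000), both on chromosome 16. In the gene annotation, 10 of 1136 microRNA genes (0.880%) were touched, in 5 gaps.

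Most gaps were short. Their median length was 25 kb, with quartiles of 15 and 50 kb and a range of 10 to 295 kb, and 292 of them (24.4%) measured exactly 10 kb. Up to 50 kb there were 907 gaps, and the 118 over 100 kb (9.87%) held 38.0% of the summed gap length. The gaps summed to 51.3 Mb, which was 31.7% of type 5 segments by number, 8.69% of type 5 by length and 2.08% of all segmented sequence. Lengths just under the limit were 285, 290 and 295 kb. The 39 type 5 segments between type 4 that reached 300 kb began at 305, 310 and 315 kb and went up to 5.875 Mb. Of 66 type 5 segments of 5 kb, the smallest step of the segmentation, 58 had type 4 on 1 side and 8 on neither side, so no gap was that short. Type 3 islands, the type 3 segments under 300 kb that also lay between type 4 segments, had a minimum of 20 kb.

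**Figure D1:**
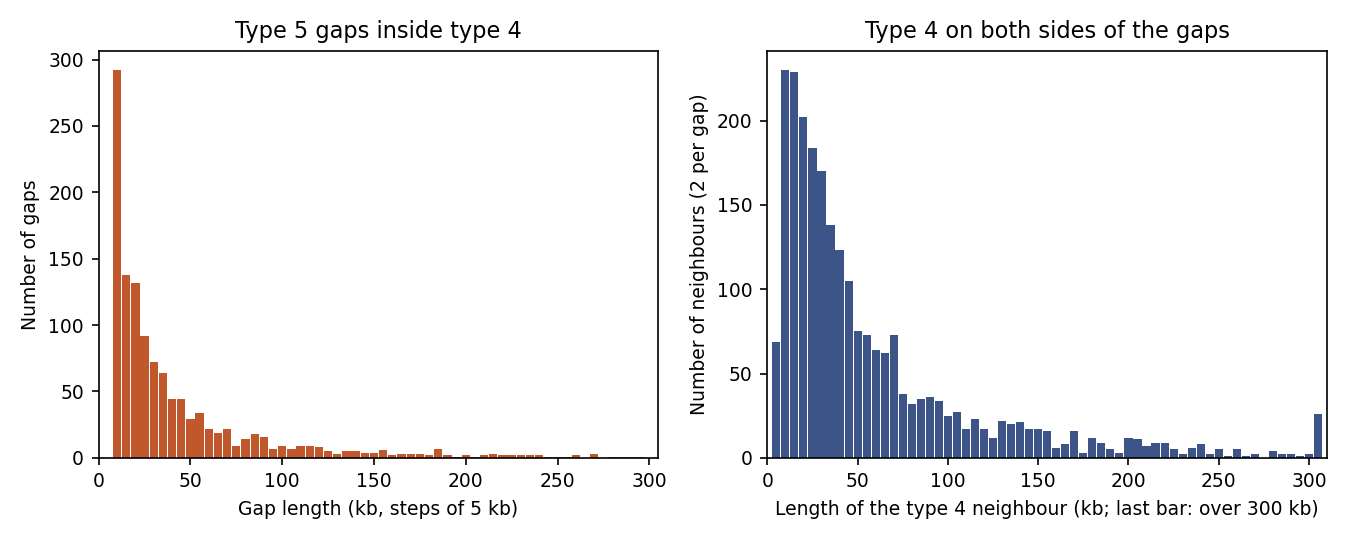
Histograms of the lengths of the 1195 gaps (left, number of gaps against length in kb, steps of 5 kb) and of their type 4 neighbours (right, 2 per gap, the last bar holding those over 300 kb). The highest bar for the gaps is at 10 kb with 292 gaps, and the neighbours reach down to 5 kb and up to 630 kb.

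The type 4 segments beside the gaps had a median length of 35 kb (quartiles 20 and 70 kb, range 5 to 630 kb). A gap was shorter than both of its neighbours in 519 cases (43.4%) and longer than both in 320 (26.8%). Gap and neighbours together had a median span of 135 kb, of which the gap took a median of 22.7% (quartiles 10.5% and 44.1%). Across the 1195 gaps, Spearman's rho between gap length and mean neighbour length was -0.30, a description only, since neighbouring gaps share a type 4 segment. As the histograms of lengths show, both kinds of segment were most frequent at or near 10 kb.

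Beyond the type 4 neighbours, type 5 was the most frequent label. Of 2390 sides, 62.5% had type 5 next, 26.8% type 3, 9.33% type 2 and 1.38% type 1. Over the sides of all type 4 segments the shares were 38.0% type 5, 48.4% type 3, 11.6% type 2 and 2.02% type 1. On both sides, 510 gaps (42.7%) had type 5 beyond, and on neither side 212 (17.7%). Since a gap is itself type 5, rows of gaps add to these counts: 1846 type 4 segments (38.9% of all type 4) lay beside a gap, and 544 of these lay between 2 gaps.

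Gaps came in rows, in which a single type 4 segment separated each gap from the next. Of the 1195 gaps, 385 (32.2%) stood alone, 810 (67.8%) were in rows of 2 or more, and 556 (46.5%) were in the 139 rows of 3 or more. The row with the longest span, 1240 kb of chromosome 9 (97305001 to 98545000), held 12 gaps of 10 to 30 kb, and type 5 took 14.9% of it. Clstn2, the gene of the synaptic cadherin-family protein calsyntenin-2, held 4 of these gaps, of 20, 30, 10 and 15 kb. Nmnat3, which encodes an enzyme of NAD synthesis, and the cellular retinol-binding protein gene Rbp2 lay wholly in the type 4 segment of 285 kb that closes the row. Trim42, which encodes a tripartite motif protein, lay in type 4 between the first pair of gaps.

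The next row spanned 1225 kb of chromosome 18 (68490001 to 69715000) with 8 gaps of 10 to 220 kb, and type 5 took 51.4% of it. Tcf4, which encodes a basic helix-loop-helix partner of proneural factors, was its only protein-coding gene and held the gaps of 15, 10 and 40 kb. The gaps of 90, 220, 170, 20 and 65 kb before it touched no protein-coding gene. In the third row, 960 kb of chromosome 13 (70710001 to 71670000), 11 gaps of 10 to 95 kb took 46.9%. Its only protein-coding gene was Adamts16, an extracellular metalloprotease gene, which lay wholly in the first type 4 segment of 145 kb, so that none of the 11 gaps touched a protein-coding gene.

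**Figure D2:**
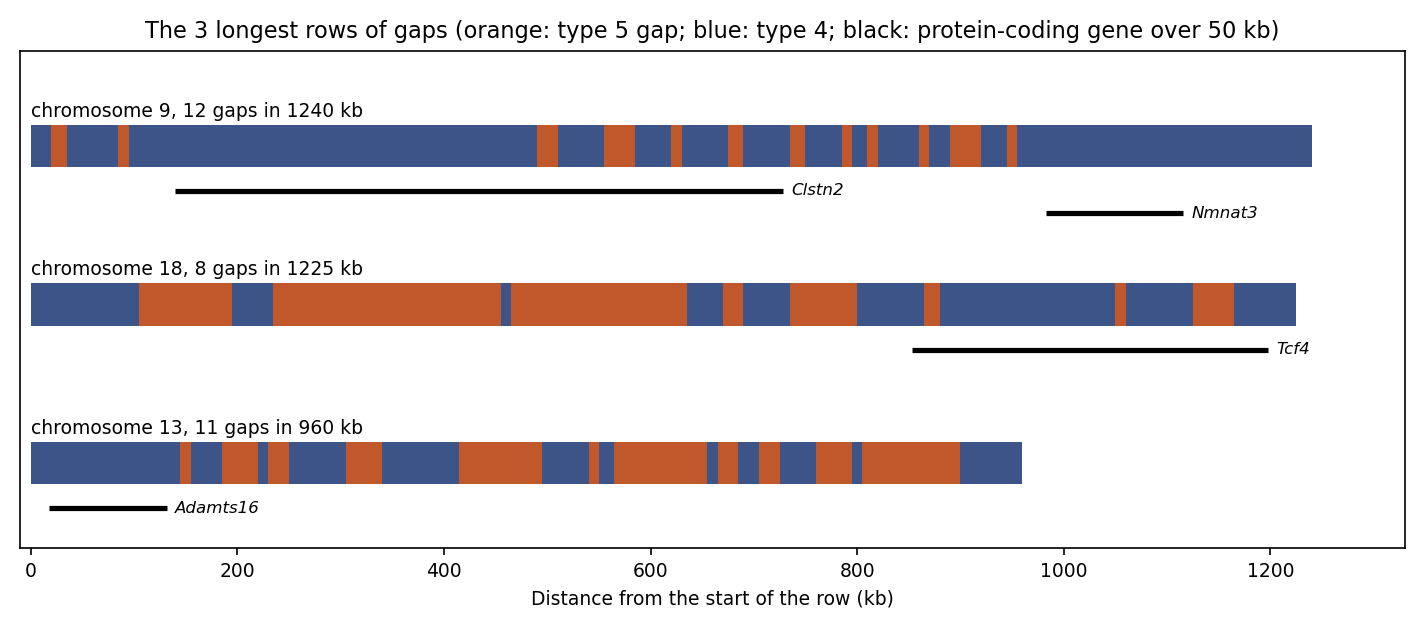
Map of the 3 rows of gaps with the longest span, with distance from the start of the row in kb, type 5 gaps in orange, type 4 in blue and protein-coding genes over 50 kb as black bars. The chromosome 9 row is mostly type 4 (type 5 takes 14.9%), whereas type 5 takes 51.4% of the chromosome 18 row and 46.9% of the chromosome 13 row.

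The number of gaps differed among chromosomes. Per 10 Mb of type 4, it ran from 22.8 on chromosome 4 to 58.4 on chromosome 18, against 35.6 over all chromosomes. Chromosome 3 (57.6) and chromosome 10 (50.6) came next below chromosome 18. Per 100 Mb of all sequence it ran from 26.6 on chromosome 12 to 73.8 on chromosome 9, against 48.5 over all. Median gap lengths lay between 17.5 kb on chromosome 12 and 40 kb on chromosome 16.

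Protein-coding genes were sparse in gaps. A gap touched the body of a protein-coding gene in 454 of 1195 cases (38.0%, 35.2 to 40.8, exact 95% Clopper-Pearson interval). Such intervals cover counting error only, as segments are neither independent nor repeated. Of the type 4 segments beside gaps, 53.0% touched one (50.7 to 55.3), of other type 4 segments 65.9%, and of type 3 islands 64.1% (60.4 to 67.6). Among other type 5 segments under 300 kb, the share was 48.0% (44.9 to 51.2) where type 4 lay on 1 side only and 43.9% (40.9 to 46.8) where it lay on neither side. By length class, the share for gaps was not below that of type 5 with type 4 on neither side throughout: over 15 and up to 20 kb it was 45.5%, against 38.2%, and over 50 and up to 100 kb 41.2%, against 39.7%. Type 5 of 300 kb or more touched a gene in 57.5%, at a median length of 545 kb. No gene of any kind was touched by 442 gaps (37.0%), against 24.1% of the type 4 segments beside gaps and 15.9% of type 3 islands. Closer to the gaps were type 5 under 300 kb with type 4 on 1 side (30.2%) or on neither side (29.4%). Type 2 segments, with the same median length of 25 kb as the gaps, were at 31.55%. Of 12324 long noncoding RNA genes, 341 were touched (2.77%), in 297 gaps (24.9%). Of 8798 pseudogenes, 152 were touched (1.73%), in 123 gaps. The share of all protein-coding genes was 1.96%, and these shares were not matched for gene length.

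Where a gap did touch a gene, it mostly lay wholly within it. Lying wholly inside a single protein-coding gene was found for 321 gaps (26.9%, 24.4 to 29.5), against 17.4% (15.7 to 19.3) of the type 4 segments beside gaps and 19.7% (16.9 to 22.9) of type 3 islands. Short type 5 with type 4 on 1 side reached 18.8%, and with type 4 on neither side 12.5%. Type 2 segments, with the same median length as the gaps (25 kb), were not below them, at 28.6% (27.5 to 29.8). For type 1 segments, with a median of 50 kb, the share was 21.5%. These sets differ in length, with medians of 25 kb for gaps, 30 kb for type 5 with type 4 on 1 side, 70 kb for type 5 with type 4 on neither side and 40 kb for type 3 islands. Between 50 and 100 kb, 24.1% of 170 gaps lay wholly inside a gene, against 19.9% of 181 short type 5 segments with type 4 on 1 side, 7.12% of 295 with type 4 on neither side and 12.5% of 152 type 3 islands. The order was not the same in every length class. Up to 10 kb, 32.5% of gaps and 33.3% of type 5 with type 4 on neither side lay wholly inside a gene, and over 100 kb 16.1% of gaps did, against 10.1%.

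Of 20560 protein-coding genes, 403 were touched by a gap (1.96%). Most of the body lay in gaps for 160 (0.778%). Of 16457 genes with a start site in the promoter table, 105 had one in a gap (0.638%). The touched genes were long, with a median body of 106 kb (quartiles 28.8 and 242 kb), against 17.2 kb for the untouched. By body length, the touched share was 0.866% up to 10 kb, 0.852% from 10 to 50 kb, 2.45% from 50 to 100 kb, 6.91% from 100 to 300 kb and 15.9% above. A single gap touched 320 genes, 83 genes had 2 or more gaps, and 34 had 3 or more.

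Ank2, which encodes ankyrin-B, the adaptor that anchors ion channels to the membrane skeleton, was crossed by 6 gaps, the largest number found. They measured 10, 10, 140, 20, 10 and 40 kb along chromosome 3 and together took 230 kb, or 39.7%, of its 579 kb body. Type 4 segments of 10 to 205 kb lay between them. Hs3st4, the gene of a heparan sulfate 3-O-sulfotransferase, was also crossed by 6 gaps (45, 45, 15, 20, 30 and 130 kb, the last reaching past the gene), which took 46.6% of its 417 kb. Both genes alternated between the types within 1 body, and their gaps were of unequal length.

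Gaps numbered 5 each in Rbms3, an RNA-binding protein gene (27.0% of 1057 kb), in the receptor tyrosine kinase gene Alk (15.6% of 736 kb) and in Nell2, which encodes a secreted neural glycoprotein (32.3% of 309 kb). The 5 gaps of Nell2, of 20, 10, 20, 30 and 20 kb, lay within 10 to 30 kb, whereas those of Rbms3 measured 150, 25, 20, 35 and 55 kb. Ebf1, a master regulator of B cell development, held gaps of 20, 20 and 20 kb separated by type 4 segments of 10 kb, and a gap of 90 kb that ran past its end, 35.4% of the gene in all. Shisa6, which encodes an auxiliary subunit of AMPA receptors, had 45.8% of its body in 4 gaps. Rasgrf2, a Ras exchange factor gene, had 37.8% in 4 gaps, Clstn2 12.7% and Enox1 8.84%.

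Genes that held a whole gap numbered 232, with a median body of 194 kb. A start site was listed for 168 of them, and in 133 (79.2%) a start lay in type 4; in 124 (73.8%) it lay in a type 4 segment directly beside a gap of that gene. Starts in type 3 were found for 13.7% and in type 5 for 14.9% of the 168, and a gene with several starts counts in each. Among 102 genes that held a whole type 3 island and had a listed start, 75.5% had one in type 4, 36.3% in type 3 and 3.92% in type 5. Among 654 long genes that held no whole gap, type 4 held a start of 20.0%, type 3 of 42.8%, type 1 of 23.5% and type 5 of 15.1%. A gene that holds a gap also holds or reaches type 4 by the choice of the gaps, so its type 4 starts are a description. The middle of the gap lay at a median of 42.6% of the gene body counted from its start (quartiles 24.2% and 64.3%, 252 pairs of gap and gene), with 94 in the first, 100 in the middle and 58 in the last of 3 equal parts.

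The longest gaps held few genes. The gap of 295 kb on chromosome 4 (85215001 to 85510000) took 174 kb, or 94.8%, of Sh3gl2, which encodes the synaptic vesicle endocytosis protein endophilin A1. The gap of 290 kb on chromosome 16 (50190001 to 50480000) held the whole 241 kb of Bbx, an HMG-box transcription factor gene. A gap of 285 kb on chromosome 2 (159485001 to 159770000) held no annotated gene. The gap of 280 kb on chromosome 11 (108430001 to 108710000) lay wholly inside the centrosomal protein gene Cep112, and that of 255 kb on chromosome 14 (99955001 to 100210000) wholly inside Klf12, which encodes a zinc finger repressor. Ptprc and Atp6v1g3, a subunit gene of the vacuolar proton pump, shared a gap of 270 kb on chromosome 1 (138020001 to 138290000), which is 1 of 3 gaps whose border overlaps that of a neighbour. Of the gaps of 255 kb or more, 10 in number, 4 held no protein-coding gene, and their type 4 neighbours measured 10 to 105 kb.

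Wholly inside a gap lay 80 protein-coding genes in 47 gaps, with a median body of 4.37 kb. After Bbx (241 kb) and Ptprc (113 kb), the longest included Ift57 (65.8 kb, in a gap of 235 kb), Abca8b (64.1 kb, 115 kb), Lrrc72 (48.1 kb, 110 kb) and Tmem144 (40.2 kb, 125 kb). Smarca5 (39.5 kb) lay in a gap of 90 kb with 25 kb of type 4 before and 200 kb after it. Hadh, which encodes a mitochondrial fatty acid oxidation enzyme (38.7 kb), nearly filled its gap of 45 kb, and Ces5a, a carboxylesterase gene (36.8 kb), lay in a gap of 115 kb.

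Several of the gaps with more than 1 whole gene held a tandem cluster, which are named here after their values were seen. All of Lce3a to Lce3f, late cornified envelope genes of the epidermis, lay in a gap of 125 kb on chromosome 3 (92875001 to 93000000). Olfr331, Olfr330, Olfr329, Olfr328, Olfr224 and Olfr325, olfactory receptor genes, lay in a gap of 85 kb on chromosome 11 (58500001 to 58585000) between type 4 segments of 145 and 75 kb. On the same chromosome 35 kb (99580001 to 99615000) held 6 genes, among them the keratin-associated protein genes Krtap1-4, Krtap9-3 and Krtap2-4. Vmn1r214 to Vmn1r217, pheromone receptor genes, lay in a gap of 110 kb on chromosome 13 (23025001 to 23135000). Cxcl3 and Cxcl15, chemokine genes, lay in a gap of 110 kb on chromosome 5 (90775001 to 90885000). In all, 16 gaps with 2 or more whole genes held 49 of the 80.

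Start sites of protein-coding genes were fewer in gaps than in the sequence around them. The gaps held 115 start sites, 2.35 per Mb, against 6.47 per Mb in the type 4 segments beside gaps, 11.0 in other type 4, 14.6 in type 3 islands and 8.46 over all chromosomes used. Other type 5 under 300 kb had 5.82 per Mb with type 4 on 1 side and 5.18 with type 4 on neither side, and type 5 of 300 kb or more had 2.06. The density in gaps was below that of the type 4 beside gaps, of type 3 islands and of type 5 with type 4 on 1 side on 18 of 18 chromosomes. It was below that of type 5 with type 4 on neither side on 12 and below that of type 5 of 300 kb or more on 7. The density in gaps by chromosome had a minimum of 0.341 per Mb on chromosome 14 and a maximum of 7.27 per Mb on chromosome 11, where the Olfr331 and Krtap1-4 clusters lie.

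In each of 7 length classes the gaps had fewer start sites per Mb than both other sets of type 5 under 300 kb. In gaps the density ran from 1.01 to 3.17 per Mb over these classes, against 4.06 to 15.2 in type 5 with type 4 on 1 side, 4.32 to 13.5 in type 5 with type 4 on neither side and, over the 5 classes they fill, 9.23 to 17.6 in type 3 islands. Near the edge of a gap the density changed within 5 kb, the step of the segmentation. It was 2.38 per Mb in the outermost 5 kb inside gaps (27 start sites), against 7.67 per Mb (87) in the first 5 kb of type 4. From 5 to 10 kb the values were 2.03 inside and 9.08 in type 4. More than 80 kb inside, 2 start sites gave 0.737 per Mb, against 4.77 per Mb more than 80 kb into type 4.

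**Figure D3:**
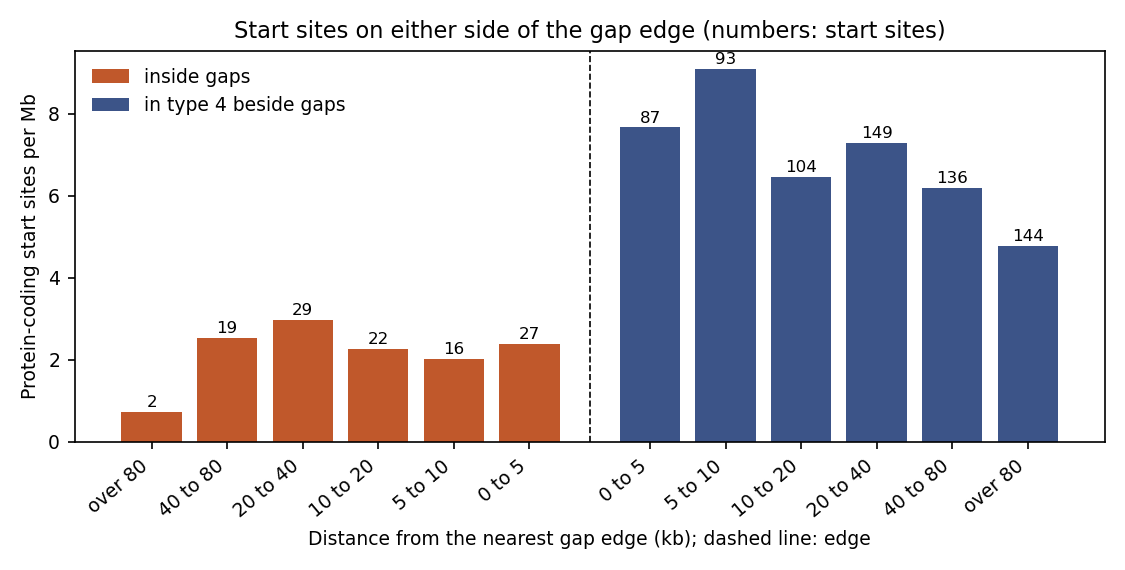
Protein-coding start sites per Mb by distance from the nearest gap edge in kb, inside gaps (orange, left of the dashed line) and in the type 4 segments beside them (blue, right), with the number of start sites over each bar. Inside gaps every class is at or below 2.98 per Mb, and in type 4 every class is at or above 4.77 per Mb.

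The promoters inside gaps were poorer in CpG than those of the type 4 beside them. The 115 windows of 300 bases in gaps held a median of 4 CG (quartiles 2 and 11.5) at a median GC content of 45.7%, against 10 CG and 54.7% for 713 windows in the type 4 beside gaps and 17 CG and 59% for 552 in type 3 islands. All 20085 windows had a median of 14 CG and 57% GC. The 115 windows of the gaps came from 77 gaps. Tandem copies of Lce3, Olfr, Krtap and Vmn1r genes were among them, so these windows are not independent. CpG-rich windows made up 21 of 115 in gaps (18.3%, 11.7 to 26.5), against 34.9% (31.4 to 38.5) in the type 4 beside gaps, 55.3% (51.0 to 59.5) in type 3 islands and 46.5% over all. Among other type 5 the shares were 29.8% (24.9 to 35.1) with type 4 on 1 side, 19.03% (15.7 to 22.7) with type 4 on neither side and 10.8% (8.63 to 13.2) at 300 kb or more, so the interval of the gaps overlapped those of all 3.

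**Figure D4:**
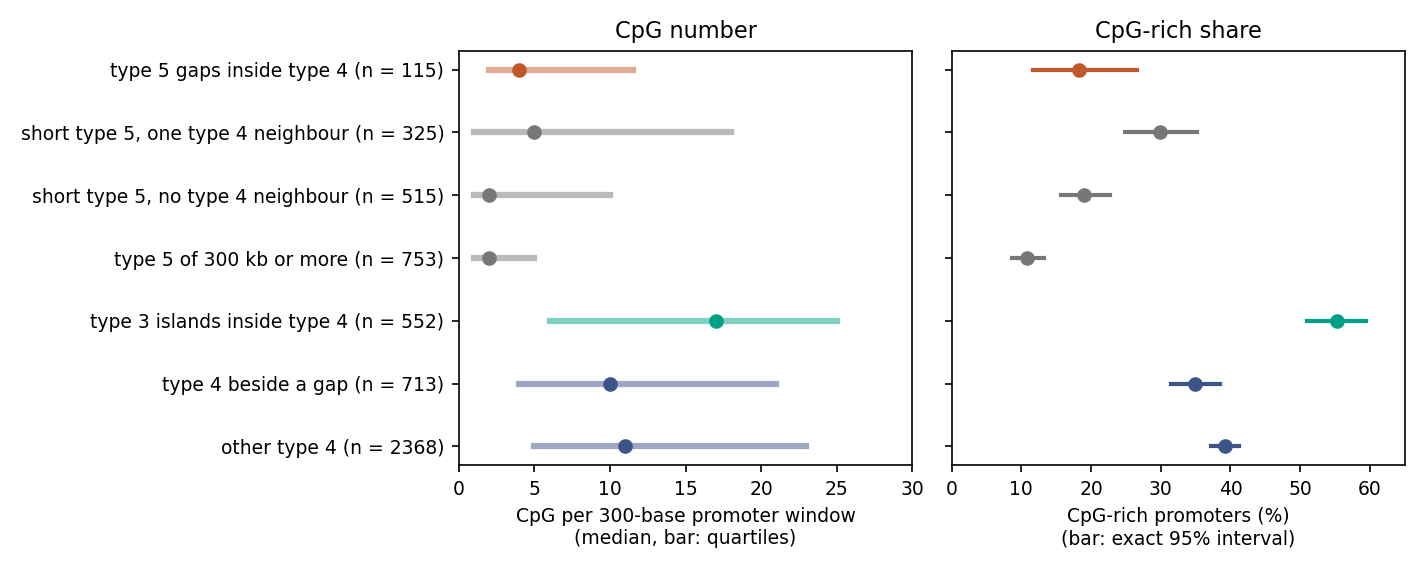
Number of CpG per promoter window (left, median with quartiles as bars) and share of CpG-rich windows in % (right, bars are exact 95% intervals) for start sites in gaps and in 6 other sets of segments, n being start sites. Gaps (median 4 CpG, 18.3% CpG-rich) stand with the other type 5 sets and below both type 4 sets and the type 3 islands.

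The letters TATAAA, searched on both strands of each window without regard to any other motif, were found in 28 of 115 windows in gaps (24.3%, 16.8 to 33.2), against 15.3% (12.7 to 18.1) in the type 4 beside gaps, 7.25% in type 3 islands and 12.7% of all windows. Among other type 5 under 300 kb the shares were 24.9% (20.3 to 29.996) with type 4 on 1 side and 29.5% (25.6 to 33.7) on neither side, both overlapping the interval of the gaps, and in type 5 of 300 kb or more the share was 38.0%. A match describes the letters and no binding. The windows in gaps include the same tandem copies.

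Genes whose maternal allele is silenced by oocyte H3K27me3 were touched by a gap in 8 of 17 cases (47.1%, 23.0 to 72.2), against 1.96% of all protein-coding genes. Their median body was 116 kb, and 16 of the 17 had a base in type 4, against 4039 of 20560 protein-coding genes (19.6%). Of the 9 list genes over 100 kb, 6 were touched (66.7%), against 208 of 2312 protein-coding genes of that length (9.0%). Of the 16 list genes with any base in type 4, 7 were touched (43.8%), against 324 of 4039 such protein-coding genes (8.02%). With type 4 of at least 25 kb on both sides of the gap, 4 of the 17 were touched (23.5%), against 206 of 20560 (1.00%).

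In 5 of the 8 touched genes the gap measured 10 or 20 kb. In Rbms1 (an RNA-binding protein gene), Gramd1b (a cholesterol transfer protein gene), Smoc1 (a secreted calcium-binding protein gene) and Slc38a4 (an amino acid transporter gene with placental expression) a single gap of 10 kb lay in the body. Its type 4 neighbours measured 345 and 10 kb in Rbms1, 225 and 215 kb in Gramd1b, 135 and 220 kb in Smoc1 and 130 and 5 kb in Slc38a4. In Cd44, the hyaluronan receptor gene, the gap was 20 kb, between type 4 of 220 and 140 kb. The share of the body in the gap was 22.1% in Cd44, 16.4% in Slc38a4, 6.27% in Smoc1, 4.68% in Rbms1 and 4.16% in Gramd1b. Slc38a4 also had a listed start in its gap (97030001 to 97040000 of chromosome 15), besides starts in type 4 and type 3.

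Gab1, which encodes an adaptor of receptor tyrosine kinases, reached into its gap with 10.6 of its 116 kb (9.11%). That gap, 90 kb of chromosome 8 (80685001 to 80775000), is the one that holds all of Smarca5. Sfmbt2, a Polycomb group gene imprinted in the placenta, reached into a gap of 135 kb with 0.253 kb (0.113%) only. Its 2 inner type 5 segments of 55 kb each had type 3 on 1 side and were no gaps. Bbx alone of the 17 lay wholly in type 5. The 9 list genes without a gap included Etv6, Sall1, Tle3, Enc1, Otx2 and Epas1, each with 100% of the body in type 4, and Runx1 with 88.9%, Mbnl2 with 92.5% and Jade1 with 72.4%.

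Imprinted genes controlled by DNA methylation were touched in 5 of 43 cases (11.6%, 3.89 to 25.1), against 1.96% of all protein-coding genes. Of those over 100 kb, 2 of 9 were touched (22.2%), against 9.0% of all of that length. Neighbours at 1 locus of chromosome 6 made up 3 of the 5, and without that chromosome 2 of 35 were touched (5.71%). With gaps under 150 kb 3 of 43 were touched (6.98%). On chromosome 6, a gap of 185 kb (4745001 to 4930000) held all 13.2 kb of Peg10, a retrotransposon-derived gene needed in the placenta. This gap also reached into the neighbours of Peg10, Sgce, which encodes epsilon-sarcoglycan, and Ppp1r9a, which encodes neurabin. Ppp1r9a had a listed start in it. Sgce also held a gap of 20 kb. Mkrn3, a makorin RING finger gene, lay wholly in a gap of 65 kb on chromosome 7 (62385001 to 62450000), with a start site inside. Usp29, a ubiquitin peptidase gene, held a gap of 15 kb.

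Among 197 developmental transcription factor genes, 9 were touched (4.57%, 2.11 to 8.50), and among 39 Hox cluster genes none, which allows up to 9.03% by the exact interval. Neurod1, a factor of neuronal and endocrine differentiation, lay wholly in a gap of 90 kb on chromosome 2 (79435001 to 79525000) with its start. Gli3, the Hedgehog pathway factor, had 33.8% of its body in 2 gaps of 70 and 20 kb, Meis1, a Hox cofactor, 28.4% in 2 gaps, Nfia 25.9% in 3 gaps and Mecom 8.95% in 1. Of the factors over 100 kb, 7 of 24 were touched (29.2%), against 9.0% of all protein-coding genes of that length. Up to 50 kb, 2 of 152 were touched (1.32%), against 0.858% of all of that length. A base in type 4 was found for 124 of the 197 factors (62.9%), against 19.6% of all protein-coding genes. Among these 124 factors, 8 were touched (6.45%), against 324 of 4039 such protein-coding genes (8.02%). By this count the factors were not above all protein-coding genes. Hox genes were all under 50 kb, and 35 of the 39 had a base in type 4.

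Of 113 genes of signalling ligands, receptors and antagonists, 3 were touched (2.65%, 0.551 to 7.56), near the 1.96% of all protein-coding genes. Over 100 kb, 1 of 11 was touched (9.09%), against 9.0% of all protein-coding genes of that length. Among the 3 were the growth factor family gene Fgf12 with 36.9% of its body in 3 gaps and Hhip, which encodes a Hedgehog inhibitor, with 27.1%. Ion channel and transmitter receptor genes were touched in 11 of 106 cases (10.4%, 5.30 to 17.8). Chrna7, a nicotinic receptor subunit gene, had 60.5% of its body in gaps, Glra1, a glycine receptor subunit gene, 26.6%, and the glutamate receptor genes Gria1 and Grin2a 18.8% and 8.17%. Cacna1c, a calcium channel gene, held a gap of 10 kb after 555 kb of type 4. Axon guidance and adhesion genes were touched in 8 of 114 cases (7.02%, 3.08 to 13.4). The share of the body in gaps was 30.5% in Cdh6, 15.1% in Ncam1, 5.30% in Negr1, 3.25% in Tenm2, 2.57% in Dscam and 1.03% in Ntm. For genes over 100 kb, the touched share was 10.4% of 77 channel and receptor genes and 9.64% of 83 adhesion genes, near the 9.0% of all protein-coding genes of that length. From 50 to 100 kb, 3 of 15 and 0 of 8 were touched in this order, against 2.45%. Among genes with a base in type 4, 11 of 58 channel and receptor genes (18.97%) and 8 of 51 adhesion genes (15.69%) were touched. Such signalling genes were touched in 3 of 53 cases (5.66%), and all such protein-coding genes in 8.02%. By this count, not matched for length, channel and adhesion genes were above all protein-coding genes.

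None of 95 ribosomal protein and proteasome genes, none of 42 genes of pluripotency and early lineages and none of 20 semaphorin genes was touched by a gap. By the exact intervals this allows up to 3.81%, 8.41% and 16.8%, all above the 1.96% of all protein-coding genes. The ribosomal and proteasome genes had no base in type 4, and of the pluripotency and lineage genes 17 had one. Of 41 Polycomb complex genes, the touched one was Sfmbt2 with its 0.253 kb. Olfactory receptor genes were touched in 13 of 1103 cases (1.18%), vomeronasal receptor genes in 7 of 349 (2.01%) and Zfp genes in 5 of 415 (1.20%). The share of all protein-coding genes was 1.96%. Up to 50 kb, the shares were 1.18%, 2.03% and 0.539% in this order, against 0.858% of all protein-coding genes of that length. Tandem neighbours shared gaps, so these genes are not independent. Touched members of the olfactory family, such as Olfr1336 and Olfr1346 in a gap of 25 kb on chromosome 7, lay wholly in gaps. Among the Zfp genes, Zfp330 lay wholly in a gap, Zfp981 had 48.1% in one, Zfp385b 14.7%, Zfp521 7.0% and Zfp993 1.49%. Zfp981 and Zfp993 overlap in the annotation and shared 1 gap of 20 kb.

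Of 347 solute carrier genes, 11 were touched (3.17%, 1.59 to 5.60), against 1.96% of all protein-coding genes, and over 100 kb 5 of 35 (14.3%), against 9.0%. With type 4 of at least 25 kb on both sides, 3 of the 347 were touched (0.865%), against 1.00% of all. Touched members included Slc18a1, the vesicular monoamine transporter gene, with 62.7% of its body in a gap of 145 kb. Slc16a12 had 52.6%, Slc22a21 49.4%, Slc26a7 46.0%, Slc16a7 17.6% and Slc2a13 8.18%. Of 42 collagen genes, 3 were touched (7.14%, 1.5 to 19.5), against 1.96% of all protein-coding genes, and over 100 kb 2 of 24 (8.33%), against 9.0%. The 3 touched were Col8a1 with 61.3% of its body in a gap of 80 kb, Col1a2, a chain of the main collagen of bone and skin, with 40.0% and its start in a gap, and Col14a1 with 14.1% in 2 gaps.

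**Figure D5:**
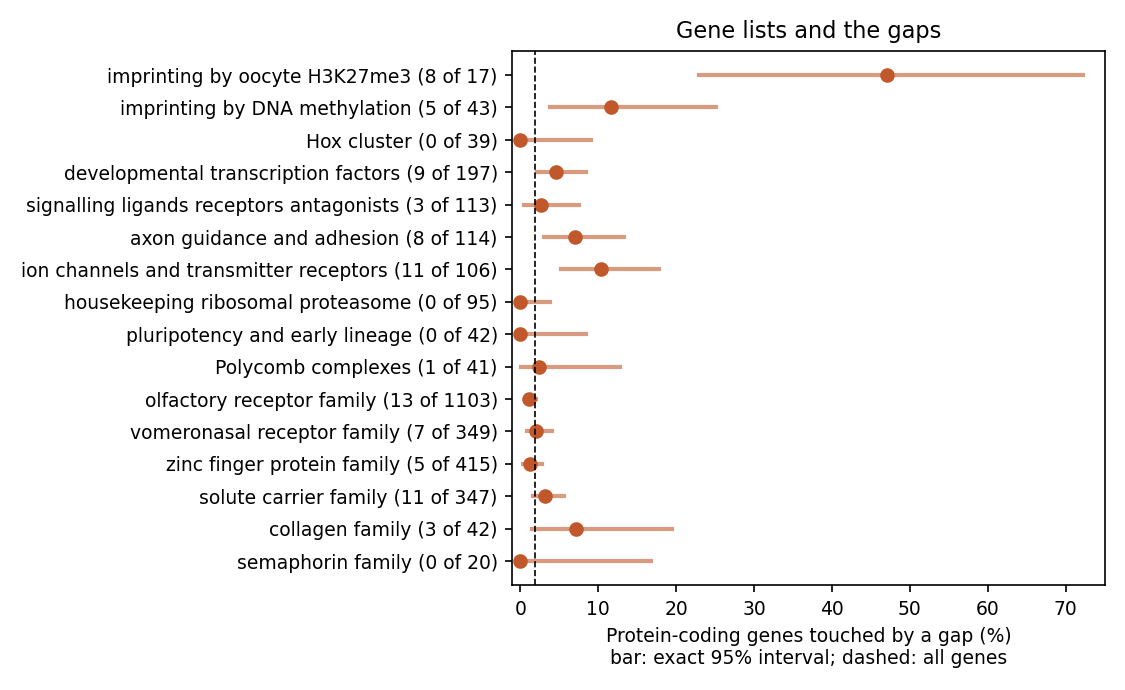
Share of protein-coding genes of each list touched by a gap, in %, with exact 95% intervals as bars, the counts beside each name and the share of all protein-coding genes (1.96%) as a dashed line. Imprinting by oocyte H3K27me3 is highest at 47.1%, while Hox, ribosomal and proteasome, pluripotency and semaphorin genes are at 0.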

How the data were processed

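H2Aub and H3K27me3 were profiled with CUT&RUN across mouse oocytes and embryos. Per the submitters' processing notes, the tools were deepTools 3.0.2, Picard 2.8.0, Bowtie2 2.3.4.3 and Trim Galore 0.4.5, and the build mm10. The authors deposited 1 segmentation that gives each stretch a type number (1 to 5), which is a name and no quantity. ChromHMM, which learns chromatin states with a hidden Markov model, is mentioned in its title only. Its version, input libraries, bin size and type key were not given in the sources used here, and depth is unknown.

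Touching segments of a type were merged, and gaps taken by type, length and neighbours. Segments overlapped at 118 borders; there the shorter counted for start sites. Gene bodies, start sites and sequences came from RefSeq tables of GRCm38.p6 (the mm10 build). Genes listed before 3 Mb were left out, since the table places genes of separate scaffolds there. Start sites of chromosome 18 were not used here, nor a genome sequence, so base composition was taken from promoter windows. Genes were touched when any base of the body lay in a gap. Intervals are exact Clopper-Pearson (95%). The gap rule, the overlap step and the lookup of positions were tested on simulated segments (Python 3.11.15, pandas 2.3.3, NumPy 2.4.6, SciPy 1.17.1, matplotlib 3.10.9). The simulated data held no genes, start sites or overlapping borders, so counts of genes and start sites were not tested.

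Members, gene lists and measures were chosen with earlier results of these data known, and the windows, motif and microRNA counts after the data had been examined. The text names genes in the 10 longest gaps (up to 3 each), the 10 longest genes wholly in a gap, the 10 with the most gaps, up to 6 touched members per list in alphabetical order (all for oocyte H3K27me3 imprinting) and genes of the 3 longest rows. List members that lack a gap were also named, and a few genes taken by these rules are not reported here.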

Additional observations from a re-analysis of the deposited data

How the results depend on the processing

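No library has a value and 1 segmentation was deposited, so nothing here measures error between libraries. No paired analysis was possible because the segmentation holds no value per library. Composition of whole gaps or of their middle 5 kb was not run without a genome sequence. With type 4 of at least 25 kb on both sides, 612 gaps remained, with a median of 20 kb, touching 1.00% of protein-coding genes. With all annotated genes, 63.0% of gaps touched a gene and 32.7% lay wholly inside one. With 5 kb added on each side of gene bodies, 42.3% touched one. Counting genes with most of the body in gaps gave 0.778%, and those with a start site in a gap 0.638%. Without gaps of 10 kb, an alternative chosen after seeing the data, the median was 35 kb and 1.72% of genes were touched. Leaving out each chromosome in turn gave 1100 to 1163 gaps, a median of 25 kb throughout, 37.2 to 38.8% of gaps touching a gene, 26.3 to 27.4% wholly inside one and 1.86 to 2.04% of genes touched. Of the 17 oocyte H3K27me3 imprinting genes, 1 had most of its body in gaps (5.88%), and of 12 with a listed start, 1 had it in a gap (8.33%). Axon guidance and adhesion genes numbered 0 of 114 and 0 of 90 by these measures. A limit of 150 kb, which left 1132 gaps, moved no summary value beyond its margin. Neither did keeping only gaps whose neighbours touch them, which left 1192. A minimum of 10 kb kept all 1195 gaps, since none was shorter, so this setting could change nothing. Unmerged segments also gave the same 1195 gaps and the same values.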

Other observations

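Genes with a start site in a gap, beyond those already described, are given here as examples out of the 105 such genes, chosen after their values were seen, and they stand for no common theme. Fpr2, a formyl peptide receptor gene of neutrophils, lay wholly in a gap on chromosome 17, and 52.7% of its neighbour Fpr1 lay in a gap. Epcam, the epithelial cell adhesion gene, lay wholly in a gap on the same chromosome. Hrnr and Rptn, epidermal S100-fused protein genes of chromosome 3, and the cytokine gene Tnfsf18 on chromosome 1 also lay wholly in gaps. Iapp, the islet amyloid peptide gene, lay wholly in a gap on chromosome 6. Bdnf, the neurotrophin gene, had 47.8% of its 52.3 kb in a gap with a start site there and further starts in type 4. Psat1, an enzyme gene of serine synthesis, had 99.7% of its 19.9 kb in a gap on chromosome 19.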
